A study of Homo sapiens with 21 samples.

Results

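Irradiated IMR90 fibroblasts that had lost both CDK4 and CDK6 to siRNA were compared with irradiated IMR90 fibroblasts that had lost CDK6 alone, so that the added siRNA against CDK4 is the treatment that differs. IMR90 is an established line of human fetal lung fibroblasts. Per the labels, both groups were irradiated, which brings these cells into senescence, a lasting arrest of proliferation. They were transfected with siRNA at 5 nM on day 4 and again on day 7 after irradiation, and they were harvested on day 10. The dual knockdown (CDK4 and CDK6 siRNA) and the CDK6 knockdown had 3 libraries each, which is 6 of the 21 libraries of the series. No control library enters this comparison. Every library was made by poly(A) capture. Of 16383 genes in the deposited table, 11016 had a normalised read count of 10 or more in 3 or more of the 6 libraries and were tested. The highest Entrez gene identifier in that table was 140467, so genes with higher identifiers are absent. Of 81 mitosis genes listed, for example, 74 were in the table. A further comparison used the 3 libraries with CDK4 siRNA alone and the 6 with the non-targeting siRNAs NT3 or NT4 (3 each), all irradiated, transfected and harvested on the same schedule. The remaining libraries were 3 of irradiated cells with CCND1 siRNA on that schedule and 3 of proliferating cells labelled as untreated. Neither of these groups was tested against another. Their values appear in the levels across groups and in the fit with variance shared by all 7 groups. The labels name 1 siRNA per target without its sequence, and they do not say whether the dual knockdown held 5 nM of each siRNA. Effects of a reagent outside its target cannot be told apart from effects of losing the target. Nothing in the labels says that the libraries of a group came from separate cultures, so p-values measure only the spread between libraries, which may be technical.

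CDK4 and CDK6 are the closely related kinases that bind D-type cyclins in G1 and phosphorylate the retinoblastoma protein RB1 and its relatives RBL1 and RBL2. When those proteins are not phosphorylated they hold back E2F-driven genes of DNA replication, and through the DREAM complex they hold back genes of mitosis as well. In senescent fibroblasts the inhibitors CDKN1A (p21) and CDKN2A (p16) keep cyclin-dependent kinases inactive, the secretory program of cytokines and proteases is switched on, and interferon-stimulated genes are often raised.

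Reads in the listed genes numbered 15466207 to 17592641 in the 6 libraries and 12892442 to 21822152 over all 21. COL1A1, a chain of type I collagen, was the gene with the most reads in all 6 libraries. It took 1.28 to 1.40% of the reads after CDK6 knockdown and 1.86 to 2.40% after dual knockdown. The summed level of 10 fibroblast markers was 522777 to 574721 normalised reads after CDK6 knockdown and 683272 to 868393 after dual knockdown. COL1A1 and COL1A2 made up most of that sum and were the 2 of the 10 past the threshold upward, THY1 was lower (-0.33), and the median over the 10 was 0.10. For 10 epithelial markers the ranges were 1687 to 1901 and 2244 to 2501, with KRT5 and SFTPC at 0 reads in all 6 libraries, KRT8 (0.39) and KRT18 (0.68) past the threshold upward, and EPCAM (-0.65), KRT19 (-0.06) and CLDN4 (0.31) not past it. For 8 endothelial markers the sums were 4100.3 to 4517 and 3444 to 3699.7, and for 8 immune markers they were 1059 to 1135 and 937 to 1010.0. In both of those lists 6 of the 8 genes had fewer than 10 reads in every library, so each sum rested on the 2 genes tested. These were VWF (-0.48) and TEK (-0.26) among endothelial markers and CD14 (-0.30) and CD68 (-0.19) among immune markers. In each list 1 was lower past the threshold and 0 were higher. The part of these shifts in the results was not tested.

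The targeted genes were read first. CDK4 stood at 1015, 946 and 889 normalised reads in the CDK6 knockdown libraries and at 123, 115 and 115 in the dual knockdown libraries. The groups did not overlap, and the mean fell from 949.9 ± 63.0 to 117 ± 4.41 (SD, n = 3 each), leaving 12.4%. The log2 difference was -3.004 (SE 0.09, adjusted p = 5.89e-13, limma). An exact two-sided permutation test over the 20 splits of 3 against 3 libraries gave p = 0.1, the smallest this design allows. CDK4 lies on chromosome 12 (chr12:57747727-57752310, RefSeq on GRCh38.p14), and part of its exons overlaps TSPAN31 on the other strand, whose level did not pass the threshold (log2 difference -0.06, adjusted p = 0.649).

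CDK6 (chr7:92604921-92836573) was targeted in both groups and was not equal between them. It stood at 834, 727 and 759.7 normalised reads after CDK6 knockdown and at 930.4, 975 and 998 after dual knockdown. The dual knockdown libraries were all above the others, at 125% of their mean (log2 difference 0.33, SE 0.07, adjusted p = 0.00233, limma, exact permutation p = 0.1). CDK6 was also higher with CDK4 siRNA alone than with non-targeting siRNA, by 0.35 (adjusted p = 0.018). That call rested on the full set of libraries, since the adjusted p was 0.11 without CDK4 knockdown replicate 1 and 0.12 without replicate 2.

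**Figure D1:**
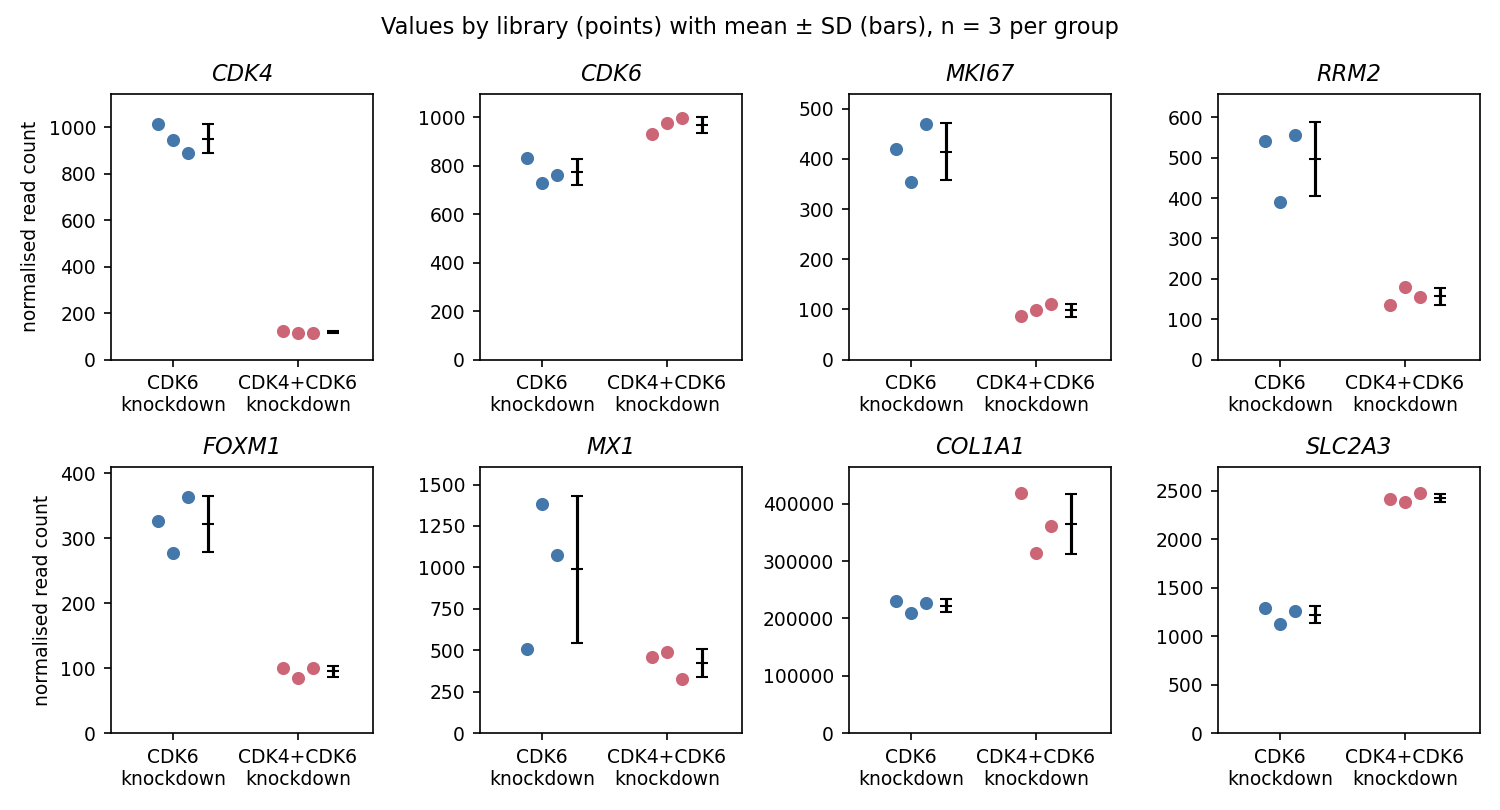
Normalised read counts (y axes, each from 0) of 8 genes in the 3 CDK6 knockdown libraries and the 3 dual knockdown libraries, with points for libraries and bars for mean ± SD. CDK4, MKI67, RRM2 and FOXM1 are lower in every dual knockdown library, CDK6, COL1A1 and SLC2A3 are higher, and MX1 is spread widely among the CDK6 knockdown libraries.

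Over all genes the 2 groups differed at 2479 of 11016 genes (22.5%), with 1270 higher (11.5%) and 1209 lower (11.0%) in the dual knockdown, at a Benjamini-Hochberg adjusted p of 0.05 from limma on the log2 of the value plus 1. The directions were nearly even in number and uneven in size. Of the 154 genes past the threshold that also differed by more than 1 on the log2 scale (1.4%), 145 were lower (1.32%) and 9 higher (0.0817%). The median log2 difference over all genes was 0.01. Libraries did not overlap between the groups at 4116 genes (37.4%), 2370 of which were also past the threshold. The count of 2479 became 1505 without CDK6 knockdown replicate 3 and 1644 without dual knockdown replicate 3.

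**Figure D2:**
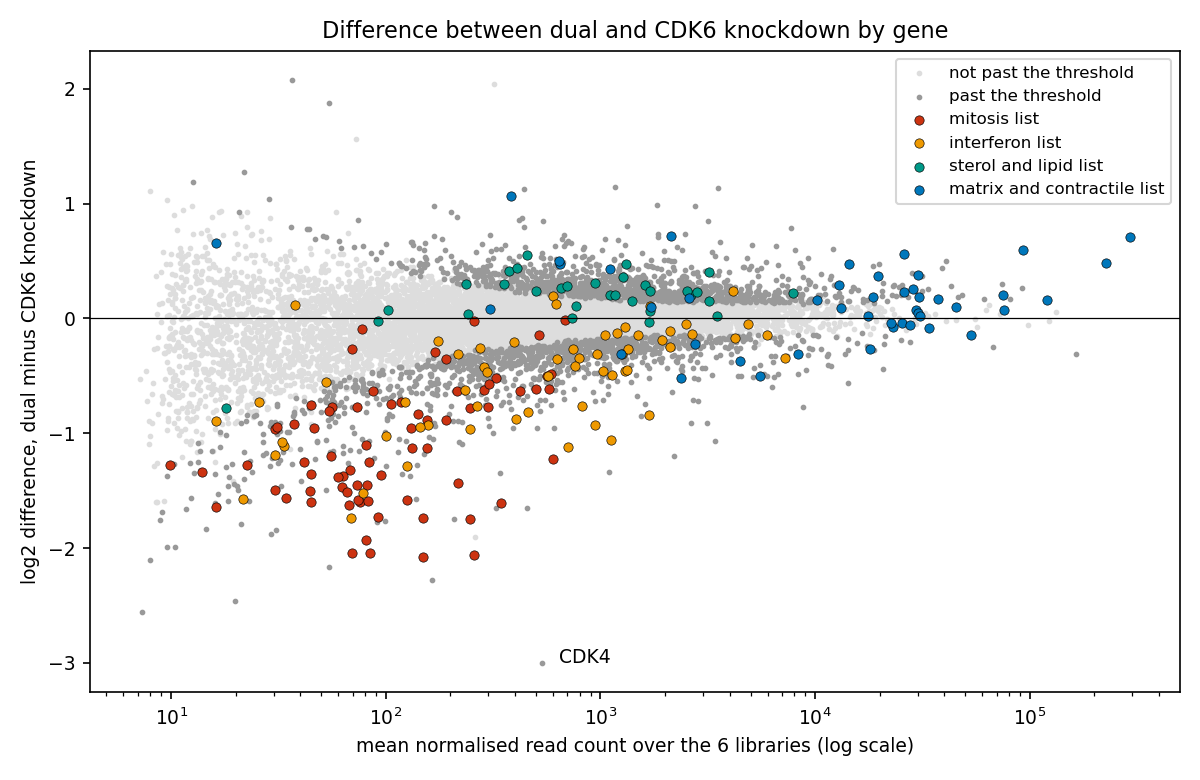
Log2 difference between dual and CDK6 knockdown (y axis) against the mean normalised read count over the 6 libraries (x axis, log scale), with a point for each of the 11016 genes tested and members of 4 lists coloured. Mitosis genes lie between -2.08 and -0.01, interferon genes mostly below 0, and all but 3 of the 31 sterol and lipid genes and many matrix genes above 0.

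The 12 largest falls past the threshold, among genes whose higher group had a mean over the median gene mean of 503 and whose libraries did not overlap, were CDK4, SV2A, TOP2A, TMEM132A, ANLN, SYT11, MX1, MXRA8, PLCB1, LAMA2, FGD4 and IFIT3. They ranged from 8.02-fold for CDK4 to 1.90-fold for IFIT3, and apart from CDK4 none fell more than 3.14-fold. Since these values chose the genes, they are given as a description. SV2A, a synaptic vesicle glycoprotein, went from 641, 746 and 684 normalised reads to 196, 249 and 214. SYT11, a synaptotagmin of vesicle traffic, went from 2904, 3312 and 3035 to 1332, 1331 and 1352. Replicates of both were tight, and each dual knockdown library lay far below each CDK6 knockdown library. MXRA8, a cell surface adhesion protein, stood at 4552, 4657 and 4657 normalised reads and then at 2245, 2081 and 2302. LAMA2, a laminin chain of the basement membrane, had means of 519.8 ± 66.3 and 266 ± 14.2 (n = 3 each), and PLCB1, a phospholipase of receptor signalling, had means of 666 ± 15.5 and 343 ± 13.9. The set joins mitosis genes (TOP2A, ANLN), interferon genes (MX1, IFIT3) and genes of membrane traffic, signalling and matrix.

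The 12 largest rises by the same rule were CYP1B1, MEST, ANGPTL4, ANKRD1, SLC2A3, CPA4, AMMECR1, IL32, PTPRF, TDG, MT1E and ENTPD7, from 2.21-fold for CYP1B1 to 1.73-fold for ENTPD7. CYP1B1, a cytochrome P450 of steroid and xenobiotic metabolism, stood at 705, 774 and 694 normalised reads after CDK6 knockdown and at 1459, 1816 and 1556 after dual knockdown. MEST, an imprinted gene expressed in mesoderm, had means of 2225 ± 386 and 4856 ± 182, and its lowest library was CDK6 knockdown replicate 2 at 1784. SLC2A3, the glucose transporter GLUT3, went from 1286, 1128 and 1258 to 2416, 2388 and 2476. ANGPTL4, a secreted inhibitor of lipoprotein lipase, went from 277 ± 23.5 to 605 ± 24.5, and PTPRF, a receptor phosphatase of cell adhesion, from 2253 ± 58.1 to 4061 ± 189. In all 12 the lowest dual knockdown library was above the highest CDK6 knockdown library, which the rule itself required. MT1E belongs to the metallothionein family of near-identical genes, so its value is uncertain.

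Genes around cyclin D and RB1 differed in some members. Of 29 tested, 8 were lower and 3 higher past the threshold, against 11.0% and 11.5% of all genes, with a median of -0.09 against 0.01 over all genes. CDK4 and CDK6 themselves are among the 11. The count of 8 became 5 without CDK6 knockdown replicate 1 or 3 or dual knockdown replicate 3. The D-type cyclins themselves did not pass in this fit: CCND1 stood at 55355 ± 1552 and 55309.7 ± 2452 normalised reads, CCND3 differed by -0.05 (adjusted p = 0.566) and CCND2 by -0.16 (adjusted p = 0.0551). CCND2 was near the threshold and passed it under 5 of 16 alternatives, among them the count tests edgeR (adjusted p = 0.049) and DESeq2 (0.044) and the fits without CDK6 knockdown replicate 2 (0.033) or dual knockdown replicate 2 (0.016). RB1 differed by -0.09 (adjusted p = 0.367). E2F1, which drives S phase genes and is itself driven by E2F, was 107.9, 82.9 and 92.9 and then 74.0, 81.9 and 67.1, with no overlap and an adjusted p of 0.161. E2F2 had 0 to 4 reads in each of the 6 libraries and was not tested.

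Some other genes around cyclin D and RB1 differed by more. Not all passed: CCNE2 (cyclin E2) stood at 30.8 ± 5.74 and 18.7 ± 9.78 and did not pass the threshold. Part of its exons overlaps INTS8 on the other strand. FOXM1, the transcription factor of G2 and mitosis genes, fell from 327, 278 and 363 normalised reads to 100.4, 85.2 and 100.1 (log2 difference -1.74, SE 0.13, adjusted p = 9.78e-08). MYBL2, its partner in the complex that switches those genes on, fell from 66.2 ± 2.48 to 27.7 ± 1.92 (-1.23, adjusted p = 0.000476). Both groups were separated by more than the spread of either. CDK2, the kinase that acts with cyclins E and A, fell from 497, 475 and 482 to 252, 328 and 264 (-0.79, SE 0.10, adjusted p = 2.43e-05). RBL1 (p107), itself an E2F target, fell by 0.69 (adjusted p = 0.0129), a call that was lost without CDK6 knockdown replicate 1 (adjusted p = 0.068), CDK6 knockdown replicate 3 (0.085) or dual knockdown replicate 3 (0.068). Part of FOXM1's exons overlaps ITFG2 on the other strand, which differed by -0.11 (adjusted p = 0.46), and CDK2 overlaps PMEL in the same way, which differed by 0.08 (adjusted p = 0.9).

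The inhibitors of these kinases did not move together. CDKN1A (p21), an inhibitor of CDK2 and a p53 target, fell from 23532, 24235 and 24042 normalised reads to 17255, 17118 and 18429 (-0.44, SE 0.05, adjusted p = 5.65e-06). CDKN2B (p15), an inhibitor of CDK4 and CDK6, rose from 134, 157 and 163 to 278, 259.9 and 301 (0.89, SE 0.12, adjusted p = 3.52e-05). Neither gene's groups overlapped. CDKN2A rose by 0.47 (adjusted p = 0.0267), and this call was lost under 7 of 16 alternatives, among them each removal of 1 library apart from CDK6 knockdown replicate 2 (adjusted p 0.051 to 0.13). How reads shared by CDKN2A and the similar CDKN2B were assigned is not given in the sources used here, so both values are uncertain.

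Genes of mitosis were lower almost throughout. Of 72 tested, 64 were lower and 0 higher past the threshold by limma, where 11.0% of all genes were lower, and all 72 had a log2 difference below 0. The median was -1.17 against 0.01 over all genes, and 38 of the 64 fell by more than 1. At 66 genes the libraries did not overlap, against 37.4% of all genes. Of the 72, 1 had passed the filter through 1 group only, and SPC25 and KIFC1 did not pass the filter on low values. Fewer cells in cycle and less RNA of these genes per cell cannot be told apart in bulk libraries.

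By role, 16 of 18 cyclins, mitotic kinases and their regulators were lower (median -1.20). Also lower were 12 of 13 kinetochore and centromere genes (-1.25), 9 of 10 kinesin motors (-0.95), 5 of 6 condensin subunits (-0.70) and 4 of 5 cytokinesis genes (-1.23). MKI67, the coat protein of mitotic chromosomes that is used to mark cycling cells, fell from 419, 355 and 469 normalised reads to 86.1, 98.3 and 111.1. Its log2 difference was -2.06 (SE 0.13, adjusted p = 1.14e-08), and the highest dual knockdown library held less than the lowest CDK6 knockdown library. BIRC5 (survivin), a subunit of the chromosomal passenger complex, fell from 242, 205 and 279 to 57.4, 69.9 and 44.05 (-2.08, SE 0.17, adjusted p = 3.24e-07). CDK1, the kinase that starts mitosis, fell from 122, 85.7 and 137 to 32.0, 39.3 and 39.0 (-1.60, SE 0.20, adjusted p = 2.87e-05). CDK6 knockdown replicate 2 was the lowest of its group for each of these 3 genes.

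TOP2A, the topoisomerase that untangles chromosomes, fell from 565, 429.6 and 554 to 161, 149.6 and 195 (-1.61). DLGAP5, a spindle assembly factor, fell from 159, 110.9 and 141 to 30.9, 39.3 and 27.0 (-2.05), and the mitotic kinase PBK from 122, 79.2 and 139.9 to 24.3, 25.1 and 29.0 (-2.04). BUB1, a checkpoint kinase, varied more among the dual knockdown libraries, at 27.6, 54.6 and 21.02 after 140.5, 84.8 and 158 (-1.93, SE 0.29, adjusted p = 0.000154). CCNA2, the cyclin of S phase and G2, fell by 1.13 on the log2 scale (SE 0.21, adjusted p = 0.00118), with 110.3 in dual knockdown replicate 2 against 135 in CDK6 knockdown replicate 2. The members that did not pass were CENPA (-1.34, SE 0.49), KIF22 (-0.35), MELK (-0.29), ESPL1 (-0.27), SMC2 (-0.15), CDC25A (-0.10), INCENP (-0.03) and ECT2 (-0.01). CENPA is the centromeric histone, and its large standard error goes with few reads. ECT2, which activates RhoA for cytokinesis, stood at 685 and 681 normalised reads on average, equal within its error.

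**Figure D3:**
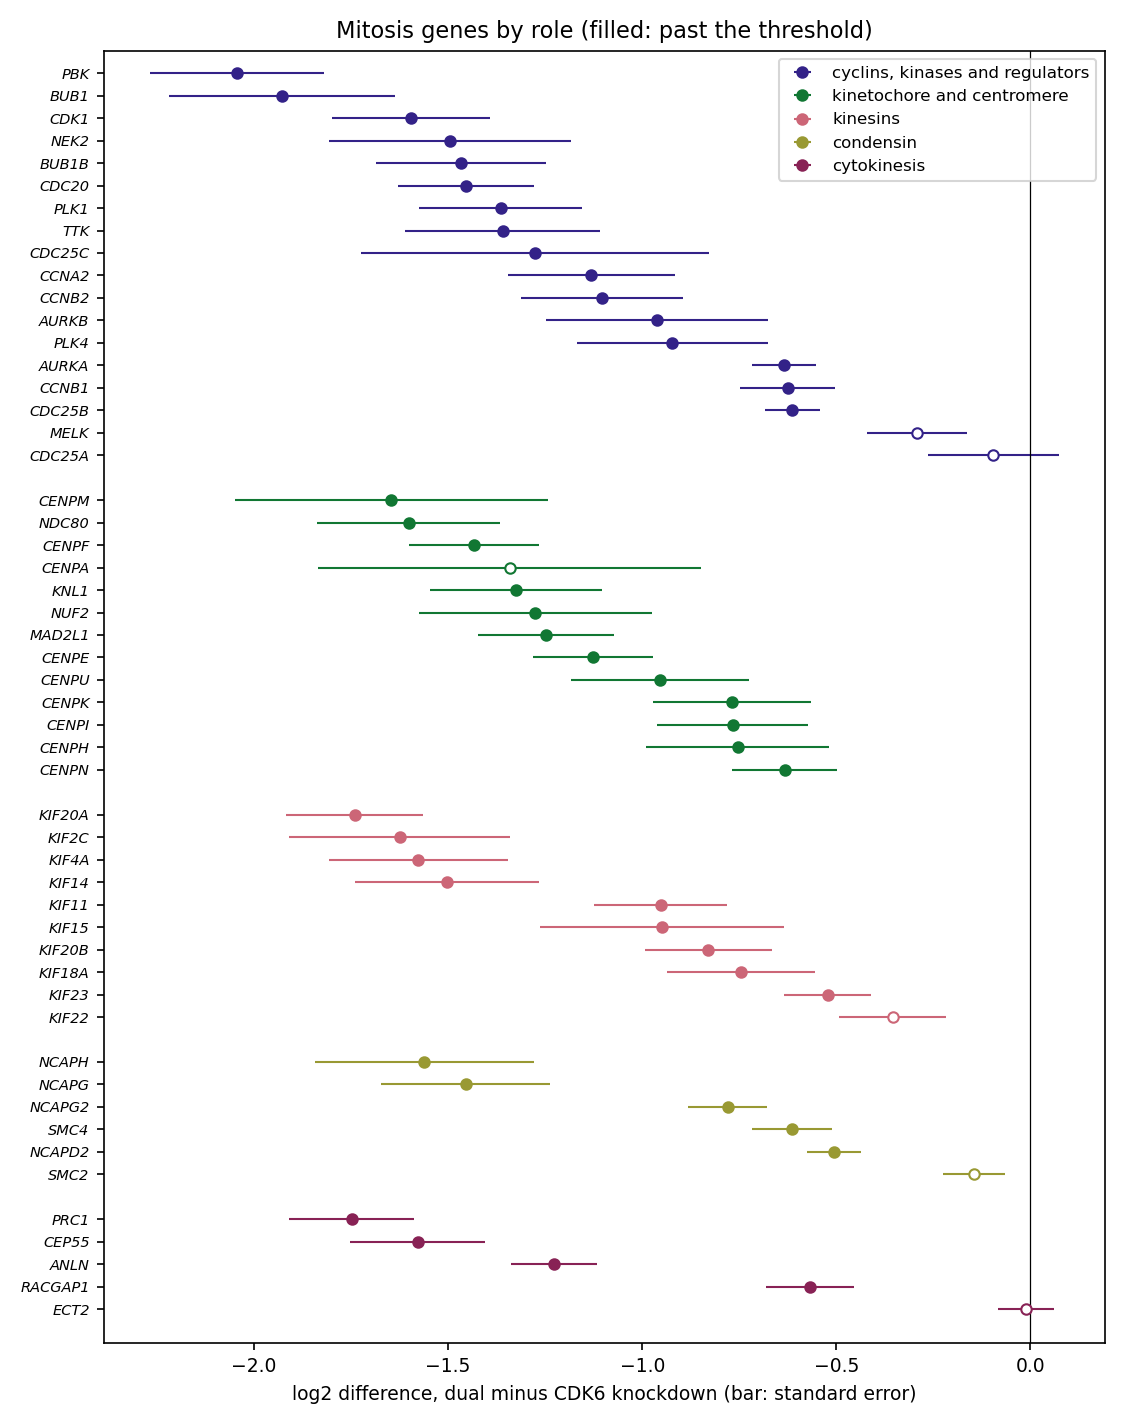
Log2 difference between dual and CDK6 knockdown (x axis, bars are standard errors) for 52 mitosis genes sorted by role, with filled points past the threshold. All points lie left of 0, from PBK at -2.04 to ECT2 at -0.01, and the kinetochore genes run from -1.65 to -0.63.

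The promoters of these genes are shown because many genes of mitosis hold 2 elements near their start sites, the cell cycle homology region (CHR) and CCAAT boxes. RefSeq promoter windows (250 bases before to 50 after the start, GRCh38.p14) were searched on both strands for TTTGAA or TTCGAA as the CHR and for CCAAT. Of the 11016 genes tested, 9014 matched a window by Entrez gene identifier. Stretches of 2 members follow, both upstream of the start, 5′ to 3′ on the minus strand, with matches to either motif on either strand in capitals. In the first, the last CHR and the last CCAAT match share a base.
MKI67 chr10:128126428-128126536: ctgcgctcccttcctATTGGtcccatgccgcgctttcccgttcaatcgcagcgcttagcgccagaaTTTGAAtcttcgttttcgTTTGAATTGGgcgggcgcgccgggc
DLGAP5 chr14:55191588-55191738: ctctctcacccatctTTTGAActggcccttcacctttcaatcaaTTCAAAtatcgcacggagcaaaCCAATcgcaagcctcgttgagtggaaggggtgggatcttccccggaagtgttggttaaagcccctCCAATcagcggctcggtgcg
Each stretch holds 4 matches. The CHR letters were in 49 of 76 windows of mitosis genes (64.5%) and in 16.4% of all 35116 windows, and CCAAT was in 64.5% and 34.6%. The CHR letters were in 12.2% of windows of all genes tested, 18.6% of those of genes lower in the dual knockdown and 9.65% of those of genes higher. CCAAT was in 34.6% of windows of all genes tested, 33.3% of those of genes lower and 37.4% of those of genes higher. A match to these letters is a description of the window, not a site or a cause.

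Genes of DNA replication were lower as well, in fewer members and by less. Of 54 S phase genes tested, 20 were lower and 0 higher by limma (median -0.33), against 11.0% lower over all genes. They were unevenly spread over the roles. In nucleotide supply 5 of 7 were lower (median -0.65), among MCM helicase and origin genes 9 of 17 (-0.58), and among polymerases and clamp genes 1 of 16 (-0.16), the sliding clamp PCNA at -0.35. RRM2, the regulated subunit of ribonucleotide reductase, fell from 541, 390.4 and 556 normalised reads to 136, 179 and 155 (-1.65, SE 0.13, adjusted p = 2.27e-07). TK1, the thymidine kinase of S phase, fell from 204, 187 and 229 to 68.4, 66.6 and 71.1 (-1.57, SE 0.14, adjusted p = 6.87e-07). For both, the lowest CDK6 knockdown library was above all dual knockdown libraries and was replicate 2.

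CLSPN (claspin), an adaptor of the replication checkpoint, fell from 78.2 ± 17.2 to 26.8 ± 4.06 (-1.50, adjusted p = 0.000174), and TYMS, which makes thymidylate, fell by 1.18 on the log2 scale. Among licensing factors CDC6 differed by -0.82, CDT1 by -0.82, MCM6 by -0.63 and MCM7 by -0.58, all past the threshold. MCM2 stood at 119, 103.4 and 139.9 and then at 131, 75.3 and 115, and the groups overlapped (-0.20, adjusted p = 0.495). CDC45, a helicase subunit, fell by 1.46 with at most 32.6 normalised reads in any library, and its call was lost without CDK6 knockdown replicate 1 (adjusted p = 0.078), replicate 3 (0.067) or dual knockdown replicate 1 (0.060). The E2F letters were sought as TTTCCCGC, TTTGGCGC, TTTCGCGC and TTTGCCGC on both strands. They were in 27 of 62 windows of S phase genes (43.5%) and in 3.31% of all windows. In windows of all genes tested their share was 4.75%, with 5.33% for genes lower in the dual knockdown and 3.98% for genes higher. DTL, the substrate receptor that marks CDT1 for destruction, carries a match next to its start and fell from 50.9, 49.4 and 77.6 to 25.4, 17.5 and 21.02 (-1.42, adjusted p = 0.000835). The stretch is on the plus strand with the E2F letters in capitals.
DTL chr1:212035725-212035747: agagcgtgacgtcagTTTGGCGC

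Of 29 tested genes of homologous recombination and the Fanconi pathway, 11 were lower and 0 higher (median -0.38), against 11.0% lower over all genes. POLQ, the polymerase of end joining by microhomology, fell from 49.9, 46.6 and 59.4 to 16.6, 24.0 and 23.0 (-1.26, SE 0.25, adjusted p = 0.00163), and the libraries did not overlap. FANCA, of the Fanconi core complex, differed by -1.08 (adjusted p = 0.00627) and the helicase BRIP1 by -0.85 (adjusted p = 0.00187). The count of 11 depended on the libraries, at 5 without CDK6 knockdown replicate 3 or dual knockdown replicate 1, 6 without CDK6 knockdown replicate 1 and 7 without dual knockdown replicate 3. Levels here were low, which limits the precision.

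Among 29 nuclear envelope and chromatin genes, 5 were lower and 5 higher (median -0.03), against 11.0% and 11.5% of all genes. Without 1 library the higher count was 2 (dual knockdown replicate 3) or 3 (CDK6 knockdown replicate 1 or 3, dual knockdown replicate 1), and the lower count was 3 without CDK6 knockdown replicate 1. LMNB1 (lamin B1), whose loss is a mark of senescence, fell from 65.1, 54.0 and 75.7 normalised reads to 30.9, 24.0 and 37.0 (-1.07, SE 0.23, adjusted p = 0.00325). EZH2, the methyltransferase of Polycomb, fell by 0.75 (adjusted p = 0.0102), a call lost without CDK6 knockdown replicate 1 (adjusted p = 0.061). HMGA2, a chromatin protein of senescent foci, rose from 5264, 5057 and 5209.7 to 7616, 8099 and 8328 (0.63, SE 0.05, adjusted p = 1.19e-07). The groups did not overlap at LMNB1 or HMGA2. HMGB2 stood at 220.2 ± 27.7 and 188 ± 7.23 and did not pass (-0.22, adjusted p = 0.196).

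Interferon-stimulated genes were lower in the dual knockdown as well. Of 60 tested, 37 were lower and 1 higher, LGALS3BP at 0.24, which did not pass without CDK6 knockdown replicate 3 (median -0.44), where 11.0% of all genes were lower and 11.5% higher. Among IFIT, MX and OAS effectors 10 of 13 were lower (median -0.96), among signal factors 3 of 5 (-0.31) and among RNA sensors 3 of 6 (-0.30). Neither of the 2 antigen presentation genes tested passed. IFI27, IRF7, CCL5, TAP1, PSMB8 and PSMB9 were among the members that did not pass the filter on low values. Libraries did not overlap at 30 of the 60 genes (37.4% over all genes).

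The CDK6 knockdown libraries differed among themselves at these genes. MX1, a GTPase that blocks viruses, stood at 507, 1382 and 1075 normalised reads in replicates 1, 2 and 3 after CDK6 knockdown and at 457, 487 and 328 after dual knockdown (-1.12, SE 0.24, adjusted p = 0.00268). IFI44L stood at 55.0, 144 and 162 and then at 36.4, 36.0 and 39.0 (-1.52, SE 0.29, adjusted p = 0.00133). OAS1, which makes the messenger that activates RNase L, stood at 57.0, 137 and 126 and then at 25.4, 45.9 and 21.02 (-1.74, SE 0.31, adjusted p = 0.000767). In all 3 genes CDK6 knockdown replicate 1 was the low library of its group yet stayed above every dual knockdown library. IFIT3, of the same family of effectors, had 891, 1559 and 1270.3 followed by 645, 759 and 527 (-0.92, SE 0.15, adjusted p = 0.000266). As a median over the 60 members relative to the 6 libraries, CDK6 knockdown replicate 1 stood at -0.03 and replicates 2 and 3 at 0.48 and 0.23, while the dual knockdown libraries stood at -0.22, -0.07 and -0.30. Without CDK6 knockdown replicate 1, 41 members were lower, and without dual knockdown replicate 3, 26.

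The interferon-stimulated response element was sought on both strands as GAAA followed by any 2 bases and GAAA again, which was in 34 of 66 windows of interferon genes (51.5%) and in 3.57% of all windows. In windows of all genes tested its share was 2.89%, with 4.42% for genes lower in the dual knockdown and 2.35% for genes higher. The element is shown in 2 members upstream of their starts on the plus strand, with matches in capitals. IFI44L carries the same letters at both ends of its stretch, and in RSAD2 (viperin) the match reads on the other strand.
IFI44L chr1:78620269-78620399: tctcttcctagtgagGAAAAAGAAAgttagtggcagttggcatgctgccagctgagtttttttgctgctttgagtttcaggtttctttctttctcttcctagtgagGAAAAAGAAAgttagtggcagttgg
RSAD2 chr2:6877617-6877656: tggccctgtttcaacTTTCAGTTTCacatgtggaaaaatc
RSAD2, an antiviral enzyme, fell from 38.7, 49.4 and 38.3 to 23.2, 10.9 and 22.0 (-1.19, adjusted p = 0.00955). Its exons overlap those of CMPK2 on the other strand, which fell by 1.57, and IFIT3 overlaps LIPA, which rose by 0.21. Whether the authors counted by strand is not given in the sources used here, so these pairs are uncertain. Of 16 genes that sense nucleic acids or relay that signal, 4 were lower and 1 higher, where 11.0% and 11.5% of all genes were. The median was -0.17. The 4 became 2 without CDK6 knockdown replicate 1, and the 1 became 0 without any library other than CDK6 knockdown replicate 1. MAVS, the mitochondrial adaptor, differed by -0.31 (adjusted p = 0.000405) and IFI16, a DNA sensor, by -0.30 (adjusted p = 0.00318).

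**Figure D4:**
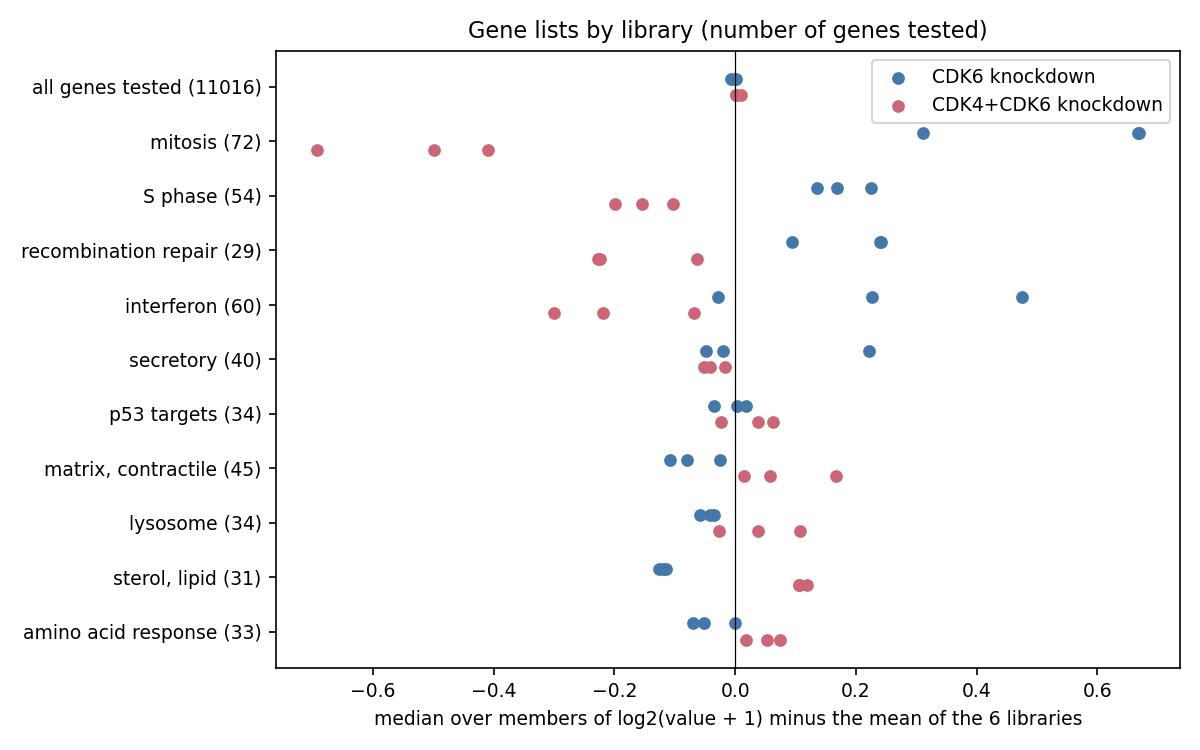
Median over the members of each gene list of log2(value + 1) minus the mean of the 6 libraries (x axis), with 1 point for each library and the number of genes tested in brackets. Groups stand furthest apart for mitosis, S phase, recombination and sterol genes. By smaller gaps they also do not overlap for interferon, matrix, lysosome and amino acid response genes or for all genes tested. They overlap for secretory genes and p53 targets. The interferon points of the CDK6 knockdown range from -0.03 to 0.48.

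Genes of the secretory program split. Of 40 tested, 8 were lower and 5 higher (median -0.15), while 11.0 and 11.5% of all genes were. The 5 became 3 without CDK6 knockdown replicate 1 or 3. The cytokines most often used to mark the program did not pass. CXCL8 stood at 323, 667 and 238 normalised reads and then at 263, 389.8 and 234 (adjusted p = 0.337), and IL6 at 268, 347 and 209.8 and then at 229.6, 259.9 and 219 (adjusted p = 0.375). In both genes the groups overlapped and CDK6 knockdown replicate 2 was the highest library of its group. Among the IL1, IL6 and chemokine genes 2 of 12 were lower, CXCL12 at -0.77 (adjusted p = 0.0246) and CCL2 at -0.27 (adjusted p = 0.0489). The CXCL12 call was lost without CDK6 knockdown replicate 2 (adjusted p = 0.083), CDK6 knockdown replicate 3 (0.069) or dual knockdown replicate 1 (0.11).

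PTGS2 (COX-2), the enzyme of prostaglandin synthesis, fell from 398, 450.1 and 341 to 211, 211 and 196 (-0.93, SE 0.11, adjusted p = 1.07e-05). MMP1, interstitial collagenase, fell from 3049, 3921 and 3109 to 1994, 2190.4 and 1955 (-0.71, SE 0.08, adjusted p = 5.98e-06). The plasminogen activators went opposite ways. PLAT fell by 0.56 (adjusted p = 1.19e-05), from 17037 ± 1977 to 11490.3 ± 534, and PLAU rose by 0.45 (adjusted p = 0.000341), from 15725 ± 2258 to 21399 ± 1086. The groups of all 4 genes did not overlap. SERPINB2, an inhibitor of both activators, stood at 316 ± 62.3 and 272 ± 15.6 and did not pass (adjusted p = 0.254). Of 19 NF-kappaB targets and factors 2 were lower and 0 higher (median 0.03), near the 11.0% lower over all genes, namely TRAF1 at -0.83 (adjusted p = 0.000734) and NFKBIZ at -0.50 (adjusted p = 0.00295). The NFKBIZ call was lost with variance shared by all 7 groups (adjusted p = 0.091). TNFAIP3 stood at 220.2 ± 61.6 and 240.5 ± 59.7, well within its spread (adjusted p = 0.641).

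Matrix genes rose more often than they fell. Of 45 matrix and contractile genes, 18 were higher and 7 lower (median 0.16), where 11.5% of all genes were higher and 11.0% lower, and 8 of 13 collagen chains were higher with 0 lower (median 0.23). COL1A1 stood at 230937, 209670.0 and 226378 normalised reads after CDK6 knockdown and at 419002, 314749 and 360767 after dual knockdown (log2 difference 0.71, SE 0.09, adjusted p = 2.99e-05). Quantile normalization gave 0.00 for COL1A1, because that method sets the top gene of every library to 1 value and COL1A1 is the top gene in all 6. SPARC, a collagen-binding glycoprotein, rose from 80141, 66088 and 76619.5 to 116343, 106060.3 and 114053 (0.60, SE 0.07, adjusted p = 1.31e-05). COL4A1, of basement membrane collagen, rose from 20926, 21342 and 20769.9 to 32072, 31253 and 29806 (0.56, SE 0.05, adjusted p = 4.85e-07). No dual knockdown library overlapped the other group in any of the 3 genes.

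ADAMTS2, the protease that trims procollagen ends, rose from 1614 ± 89.4 to 2662 ± 171 (0.72, adjusted p = 2.51e-07). The transcriptional cofactor ANKRD1 rose by 1.07 (SE 0.13, adjusted p = 2.45e-05), with 428, 649.7 and 479.5 after 256, 273 and 205. Of 8 contractile genes 3 were lower and 1 higher, the tropomyosin TPM1 at 0.19. ACTA2, smooth muscle actin, fell from 6857, 6204 and 6494 to 4824, 4475 and 4524 (-0.50, SE 0.05, adjusted p = 3.14e-06), and LMOD1, an actin nucleator, fell from 2794 ± 107.3 to 1951 ± 102.6 (-0.52, adjusted p = 3.92e-06). ACTA2 shares exon sequence with FAS on the other strand, which fell by 0.24 (adjusted p = 0.00382).

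Many genes of sterol synthesis rose by small amounts. Of 31 sterol and fatty acid genes tested, 18 were higher and 0 lower (median 0.23), against 11.5% higher over all genes. Libraries did not overlap at 21 of the 31, against 37.4% of all genes. Enzymes of the cholesterol pathway gave 11 of 19 higher (median 0.24) and those of fatty acids 3 of 7 (median 0.02). ACACA, which makes malonyl-CoA for fatty acid synthesis, had the largest difference of the list at -0.78, with few reads and no call (SE 0.55, adjusted p = 0.344), and 3 of the 31 lay below 0. MVD, an enzyme of the mevalonate pathway, rose from 337, 381 and 384 to 521, 541 and 553 (0.55, SE 0.08, adjusted p = 0.000132). MSMO1, a sterol demethylase, rose from 1127, 1086 and 1093 to 1539.7, 1616 and 1442 (0.47, SE 0.06, adjusted p = 2.05e-05). INSIG1, which retains the SREBP regulators in the endoplasmic reticulum and is their target, rose from 349 ± 40.5 to 472 ± 46.3 (0.44, adjusted p = 0.00482). SCD, the desaturase that makes oleate, rose from 2744 ± 31.7 to 3629 ± 31.9 (0.40, adjusted p = 8.48e-06), and SREBF2, the master regulator of the pathway, by 0.24. The per-library median of the list was -0.11, -0.12 and -0.13 after CDK6 knockdown and 0.12, 0.11 and 0.11 after dual knockdown, a narrow spread within each group in the plot of list medians by library.

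The remaining lists had members on both sides, and their counts stand against 11.0% lower and 11.5% higher over all genes. Of 34 p53 targets 6 were lower and 8 higher (median 0.02), which became 3 lower without CDK6 knockdown replicate 1 or 3 and 5 higher without dual knockdown replicate 1 or 3. CDKN1A was the largest fall, and the decoy receptor TNFRSF10D was the largest rise, from 6147, 5098 and 5786 to 9953, 9176 and 10141 (0.78, SE 0.06, adjusted p = 1.62e-07). The death receptor TNFRSF10B rose by 0.44 (adjusted p = 1.28e-05) and MDM2 differed by -0.12 (adjusted p = 0.132). Of 33 amino acid response genes 7 were higher and 2 lower, with 4 higher without dual knockdown replicate 1 or 3. SLC7A5, the transporter of large neutral amino acids, rose from 1582, 1564 and 1579 to 2546, 2157 and 2412 (0.59, SE 0.06, adjusted p = 3.18e-06), and the serine synthesis enzyme PSAT1 by 0.54, while ATF5 fell by 0.43. Of 34 lysosome genes 7 were higher and 1 lower, the protease CTSK at -0.42. The higher count fell to 1 without dual knockdown replicate 1 or 3, to 2 without CDK6 knockdown replicate 1 or 3 and to 4 without CDK6 knockdown replicate 2. Of 37 genes of growth factor signalling 9 were higher and 8 lower (median -0.00), among them TGFB2 at 0.56 and ETS1 at 0.51 on one side and IGFBP2 at -0.68 on the other. The 9 became 5 without CDK6 knockdown replicate 1 or 3.

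How these levels sit among the other groups is given for some of the named genes. MKI67 had 8163 ± 327 normalised reads in proliferating cells labelled as untreated. It had 656 ± 175 with NT3, 674 ± 25.9 with NT4, 988 ± 106.4 with CDK4 siRNA, 424 ± 7.996 with CCND1 siRNA, 415 ± 57.4 with CDK6 siRNA and 98.5 ± 12.5 with both (n = 3 each). The dual knockdown was the lowest of the 7 groups, CDK6 and CCND1 knockdown lay within their spread of each other, and so did NT3 and NT4. SYT11 was highest after CDK6 knockdown, at 3083 ± 208, and stood at 953 ± 85.6 to 1656 ± 102.2 in the other 6 groups, the dual knockdown (1339 ± 12.03) among them. COL1A1 was highest in the dual knockdown, at 364839 ± 52246, and at 209496 ± 22528 to 256879.6 ± 7652 elsewhere. MX1 was at 42.4 ± 7.39 in proliferating cells, 4542 ± 944 with NT3, 2371 ± 326 with NT4, 988 ± 444 after CDK6 knockdown and 424 ± 84.3 in the dual knockdown, so its fall started from a level already under both controls.

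The CDK4 siRNA was also compared with non-targeting siRNA in cells with CDK6 present, in libraries that the comparison above did not use. The 2 contrasts are not matched in every respect. Here CDK4 siRNA took the place of a non-targeting siRNA, and in the dual knockdown it joined the CDK6 siRNA. Total siRNA or the dose of CDK6 siRNA may thus differ between dual and CDK6 knockdown, and the labels do not settle it. The part of dose in any difference between the 2 contrasts was not tested. CDK4 siRNA against the mean of NT3 and NT4 gave 1393 genes past the threshold (12.6%), 717 higher (6.51%) and 676 lower (6.14%). CDK4 fell by 3.51 there, so both contrasts removed most of it. Higher in both were 237 genes, which is 18.7% of the 1270 and 33.1% of the 717. Lower in both were 268, which is 22.2% of the 1209 and 39.6% of the 676. In opposite directions went 17 genes that were higher and 54 that were lower in the dual knockdown. The count of 1393 became 2469 without NT3 replicate 3, 743 without CDK4 knockdown replicate 1 and 676 without CDK4 knockdown replicate 2, and 2392 with NT3 as the only control.

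Genes of mitosis differed most between the 2 settings. With CDK6 present, 1 of the 72 was lower and 19 were higher after CDK4 siRNA (median 0.33). Leaving out a CDK4 knockdown library reduced the 19 to 9, 4 and 11 in turn, and leaving out NT3 replicate 3 gave 29, with medians from 0.29 to 0.34 over these 4 fits. MKI67 was 988 ± 106.4 with CDK4 siRNA and 665 ± 113 over the 6 controls (0.58, adjusted p = 0.013), a call lost without CDK4 knockdown replicate 1 (adjusted p = 0.065) or replicate 2 (0.086). The difference of the 2 differences was tested in 1 limma fit over the 15 libraries. It passed at 397 of 11016 genes (3.6%), 256 further down (2.32%) and 141 further up (1.28%) with CDK6 knocked down. The total became 1147 without NT3 replicate 3 and 248, 249, 255 and 261 without CDK4 knockdown replicate 2, CDK6 knockdown replicate 3, CDK4 knockdown replicate 1 and dual knockdown replicate 3.

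By that test the CDK4 siRNA effect was lower with CDK6 knocked down at 58 of the 72 mitosis genes and higher at 0 (median -1.48), a count that stayed between 54 and 62 when any 1 library was left out. MKI67 differed by -2.64 (adjusted p = 4.3e-06), FOXM1 by -1.83 (2.4e-06), RRM2 by -2.00 (5.3e-06) and TK1 by -1.75 (1.5e-05). FOXM1 and TK1 were outside the panel set for this test. S phase genes gave 14 of 54 (median -0.41). For sterol genes 7 of 31 were further up, a count that ran from 3 to 13 when 1 library was left out. Interferon genes gave 5 of 60 further down, and that count ran from 1 to 20. MX1 (-0.97, adjusted p = 0.16) and IFI44L (-1.34, adjusted p = 0.06) did not pass.

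At other genes the 2 contrasts did not differ past the threshold. CDK2 differed by -1.04 after CDK4 siRNA alone and by -0.79 on top of CDK6 siRNA, with a difference of 0.25 (SE 0.11, adjusted p = 0.25). CDKN1A differed by -0.49 and -0.44 (difference 0.05, adjusted p = 0.78), MXRA8 by -1.25 and -1.07 (0.19, adjusted p = 0.37) and TMEM132A by -1.42 and -1.33 (0.09, adjusted p = 0.79). A p above the threshold does not show that these differences are equal. CDKN2B and SYT11 were on the other side, at -0.01 and -0.08 after CDK4 siRNA alone against 0.89 and -1.20 on top of CDK6 siRNA (adjusted p of the difference 0.00064 and 4.3e-06). LAMA2 depended on the control, at 115 ± 34.2 with NT3 and 569.8 ± 83.3 with NT4, and its difference of differences of -1.21 became -0.04 with NT4 alone. MXRA8, TMEM132A, SYT11 and LAMA2 were chosen as large falls of dual against CDK6 knockdown, which is part of this difference. CDK2, CDKN1A and CDKN2B were outside the panel set for this test. The values of these genes are a description.

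**Figure D5:**
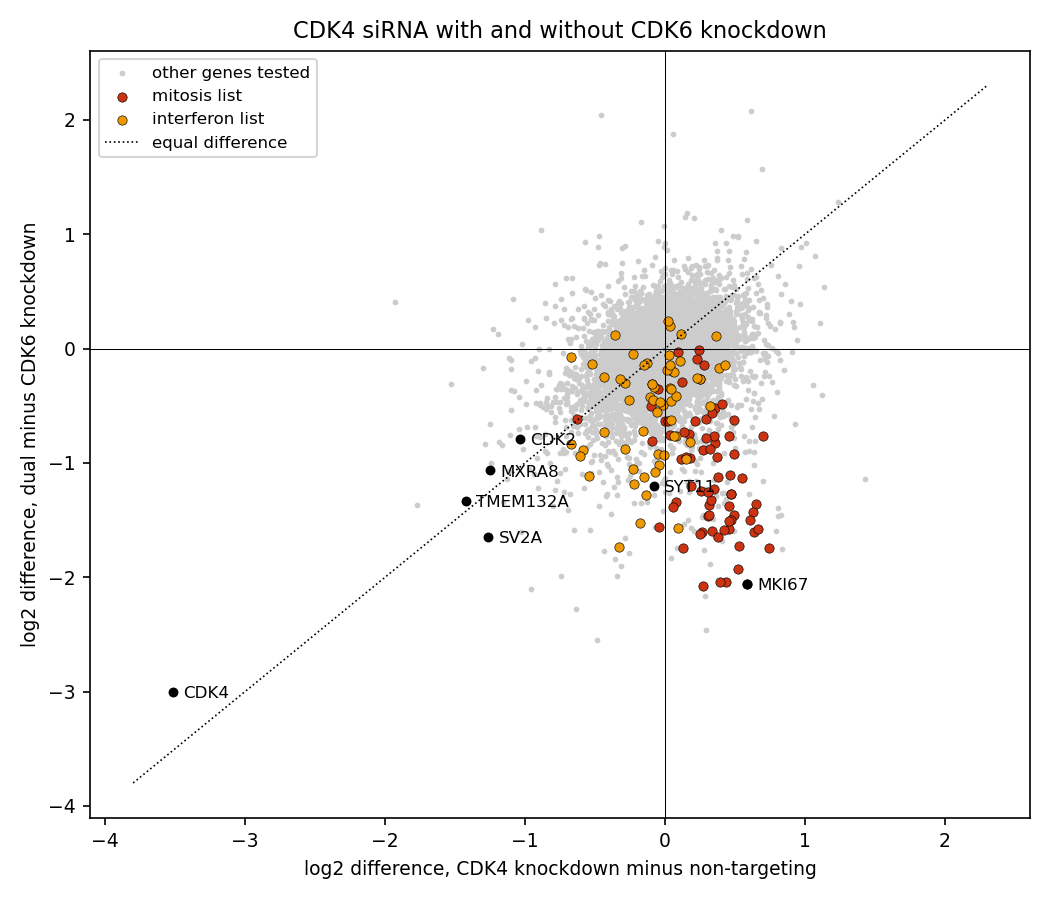
Log2 difference made by CDK4 siRNA with CDK6 knocked down (y axis) against that with CDK6 present (x axis, CDK4 siRNA minus the mean of NT3 and NT4), with a point for each of the 11016 genes and a dotted line of equal differences. SV2A, TMEM132A, MXRA8 and CDK2 lie near the line and CDK4 lies 0.51 above it. Most mitosis genes, such as MKI67, lie right of 0 and far below the line.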

How the data were processed

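RNA was measured in 21 libraries of IMR90 cells by RNA-seq after poly(A) capture. Per the submitters' processing notes, the tools were Trimmomatic 0.38.1, HISAT2 2.2.1, featureCounts 2.0.3, FastQC 0.74, MultiQC and DESeq2 2.11.40.8 with hg38/GRCh38. The deposited signal is a normalised read count per gene, that is, reads divided by a size factor of the library. Dividing by that step gave whole reads for 100% of values within a tolerance of 0.05. Columns were assigned to groups by name, and replicate numbers follow column order and only name libraries.

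Genes with a value of 10 or more in 3 or more of the 6 libraries were tested with limma 3.58.1 (limma-trend) in R 4.3.3 on log2(value + 1), so fold changes of low genes are understated. P-values were adjusted by Benjamini-Hochberg over 11016 genes at 0.05. The CDK4 siRNA contrast and the difference of differences came from 1 fit over 15 libraries. Exact permutation tests and tables used Python 3.11.15 with scipy 1.17.1. Scripts were tested on simulated data. On the recovered reads, edgeR 4.0.16 (quasi-likelihood) called 2458 genes and DESeq2 1.42.0 called 2170. Other alternatives were the pseudocount (0.1, 10), the filter (none, a mean of 100), median centring, quantile normalization, each library left out, variance shared by all 7 groups, either non-targeting control alone and a replicate block, the last chosen after seeing the column names.

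The comparison, gene lists and named genes were chosen with earlier results of these data known. Named genes were a panel of 32, the 12 largest rises and falls past the threshold with no overlap between groups and a higher-group mean over the median gene mean of 503, and up to 5 leading members of each list with up to 2 in the opposite direction. Other members were named as examples after their values were seen. Exon overlaps came from GENCODE release 44 and promoters from RefSeq (GRCh38.p14). Of 116 named genes, 25 share exon sequence with another gene. Some members of the lists are not reported here.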

Additional observations from a re-analysis of the deposited data

Results flagged for a closer look

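The effect of the CDK4 siRNA differed between cells with CDK6 knocked down and cells with CDK6 present at 397 genes by the limma test of the difference of differences, 256 further down and 141 further up with CDK6 knocked down. The named genes below passed the test of the difference of differences, and values are differences of log2 differences. TOP2A, ANLN, SYT11 and LAMA2 were chosen as large falls of dual against CDK6 knockdown, which is part of this difference. FOXM1, TK1 and CDKN2B were outside the panel set for this test. The values of these genes are therefore a description.

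CDK4 itself differed by 0.51, with log2 differences of -3.004 on top of CDK6 siRNA and -3.51 without it. Among genes of the cell cycle the values were -2.64 for MKI67, -2.00 for RRM2, -1.87 for TOP2A, -1.83 for FOXM1, -1.75 for TK1, -1.68 for CCNA2, -1.57 for ANLN and -0.62 for E2F1. E2F1 was near the threshold (adjusted p = 0.043, limma). LMNB1, of the nuclear lamina, differed by -1.28. SYT11 differed by -1.12 and CDKN2B by 0.89. LAMA2 differed by -1.21 against both controls and by -0.04 against NT4 alone.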

How the results depend on the processing

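In the comparison of dual with CDK6 knockdown, 83 of the named genes past the threshold passed it with the same sign under the 16 alternatives that added no minimum fold, and 20 lost their call under 1 or more of them. The total of 2479 ranged from 1505 to 2667 when 1 library was left out, with 747 to 1412 higher and 758 to 1255 lower. It was 1542 (717 higher) with variance shared by all 7 groups, and 154 (9 higher, 145 lower) when a log2 difference over 1 was required too. With a filter on a mean of 100, mitosis gave 27 lower of 32 tested, S phase 11 and recombination 4. Recombination gave 7 with no filter, 6 with quantile normalization and 5 to 9 with 1 library left out.

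CDK4 siRNA against the controls gave 676 to 2469 genes with 1 library left out (333 to 1266 higher, 343 to 1203 lower). NT3 alone gave 2392 (1232 higher, 1160 lower), and NT4 alone gave 473 higher. The difference of differences gave 248 to 1147 genes (78 to 552 higher, 163 to 595 lower). NT3 alone gave 1318 (609 higher, 709 lower), NT4 alone gave 72 higher, and the filter on a mean of 100 gave 170 lower. The cause of these shifts was not tested.

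Some signs turned. CCND1 became 0.033 with quantile normalization. With 1 library left out, the log2 differences ran from -0.031 to 0.033 for CCND1, -0.68 to 0.059 for CXCL8, -0.36 to 0.036 for MCM2 and -0.052 to 0.35 for TNFAIP3. After CDK4 siRNA alone, SYT11 became 0.15 with NT3 as control, and with NT4 as control CDKN2B became 0.0032, FOXM1 -0.044 and LAMA2 -0.92. CDKN2B ran from -0.064 to 0.073 with 1 library left out. For the difference of differences, quantile normalization gave -0.027 for CDKN1A and 0.014 for TNFAIP3. NT3 alone gave 0.085 for CDK6, 0.43 for CXCL8 and 0.29 for TNFAIP3, and NT4 alone gave 0.32 for ADAMTS2 and -0.066 for TMEM132A. With 1 library left out these differences ran from -0.12 to 0.049 for CDK6, -0.68 to 0.058 for CXCL8, -0.22 to 0.18 for TNFAIP3 and -0.028 to 0.20 for TMEM132A.

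Libraries in the same run of column numbers showed little shared deviation from their group means over all genes tested (correlations 0.0066, -0.024 and 0.055). The labels do not say what the numbers stand for. Such correlations would miss a batch that acts on some genes only, so a shared batch was not tested. The replicate block gave 2488 genes (1273 higher, 1215 lower), 1398 for CDK4 siRNA against the controls and 412 for the difference of differences. Depth limits members with few reads, such as CENPA and CDC45.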
